A study of Gallus gallus with 4 samples.

Results

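Collagen, laminin and integrin genes were followed across the cell types of the chick retina and across damage and microglia loss. Genes were taken by symbol, as COL with a chain number, as LAMA, LAMB or LAMC with a chain number, or as a name that starts with ITGA or ITGB, leaving out *ITGBL1*. This rule found 69 of the 30108 genes in the count tables. Of these, 33 encode collagen chains, 12 laminin chains, 12 integrin α subunits and 8 integrin β subunits. The remaining 4 (*ITGB1BP1*, *ITGB1BP2*, *ITGB1BP3* and *ITGB3BP*) are not integrins and share only the start of the name. *ITGB1BP3* is, in mammals, another name of the nicotinamide riboside kinase *NMRK2*.

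The data were 4 single-cell RNA-seq libraries of dissociated retinas from wild-type chicks, 1 library per condition. Eyes of the clodronate+NMDA group had received clodronate liposomes, which kill the phagocytes that take them up, at P6 and NMDA, a glutamate receptor agonist that kills inner retinal neurons, at P10. NMDA eyes had received saline at P6 and NMDA at P10. Clodronate+saline eyes had received clodronate liposomes at P6 and saline at P10, and saline eyes had received saline on both days. Saline and not empty liposomes was the control for clodronate. All tissue was collected 24 h after the last injection, and the number of retinas in a library was not given in the sources used here.

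Collagens are secreted or membrane-bound triple-helical proteins: fibrillar types V and XI help set the width of fibrils, type IV forms the network of basement membranes, and types such as IX, XII, XIV and XVI bind to fibril surfaces. Laminins are cross-shaped trimers of an α, a β and a γ chain that polymerise in basement membranes, including the inner limiting membrane on which the endfeet of Müller glia (MG) rest. Integrins are heterodimers of an α and a β subunit that link these proteins to the cytoskeleton, and those with αV can also release active TGFβ from its latent complex. The questions of the study behind these genes were what MG express in damaged and undamaged retinas, with and without microglia.

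The libraries held 8050 to 11434 cell barcodes and 20614413 to 27033560 UMIs, and 5781 to 9681 cells each passed the limits of 200 to 2500 genes and at most 5% mitochondrial UMIs. Cells were clustered without the genes described here, and clusters were named from marker genes. MG numbered 343 in clodronate+NMDA, 387 in NMDA, 439 in clodronate+saline and 812 in saline. Their median depths were 4138, 4856, 4144 and 4132.5 UMIs per cell in that order, and all 9 MG markers were detected in each library. Damaged and undamaged MG fell into different clusters: cluster 13 held 342 MG of clodronate+NMDA, 387 of NMDA and 7 of clodronate+saline, and cluster 11 held 1 of clodronate+NMDA, 432 of clodronate+saline and 812 of saline. Cluster 19, with 6 cells in clodronate+NMDA, 0 in NMDA, 222 in clodronate+saline and 146 in saline, had markers of MG and of rods raised together and was left out of the MG. Barcodes with UMIs of at least 2 of the complement genes *C1QA*, *C1QB* and *C1QC*, which mark microglia, numbered 0 in clodronate+NMDA, 28 in NMDA, 0 in clodronate+saline and 23 in saline. Any pair of libraries shared 101 to 214 barcode sequences, and 23.3% to 37.9% of the shared ones that were kept had the same cell type, against 28.8% to 34.3% of all pairs of cells. With 1 library per condition no test between conditions was possible. Levels are given as CPM, the UMIs of a gene in a cell type and library per 1000000 UMIs summed there. Ratios are log2 ratios of CPM with exact 95% intervals, which cover counting error only and leave out differences between animals, injections and library preparations.

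MG held more of these transcripts than their share of all UMIs. They were 5.93% of the kept cells in clodronate+NMDA, 4.57% in NMDA, 4.71% in clodronate+saline and 8.39% in saline, and they held 11.3%, 11.7%, 9.595% and 19.4% of all UMIs. Of the collagen UMIs, 49.0% lay in MG in clodronate+NMDA, 42.3% in NMDA, 40.0% in clodronate+saline and 62.8% in saline. Of the laminin UMIs, 40.1% lay in MG in clodronate+NMDA, 40.7% in NMDA, 36.0% in clodronate+saline and 65.0% in saline. Integrin α and β UMIs lay in MG to 29.3% to 56.3%. Among 45 genes with at least 20 UMIs in the cell type where their mean CPM was highest, that cell type was MG for 22, bipolar cells for 5, and oligodendrocytes and NIRG cells (non-astrocytic inner retinal glia) for 5. It was horizontal cells for 4, erythrocytes for 3, and cone photoreceptors, amacrine cells and retinal ganglion cells (RGCs) for 2 each. The level in the highest type was at least 2 times that in the next type for 20 genes, 14 of them highest in MG. The same counts were not made for all genes, so they do not set these families apart from others. For most of the MG genes, such as *COL11A1*, *LAMA1* and *ITGA6*, the next type was the erythrocyte cluster. In that cluster the MG markers *VIM*, *FABP9* and *MDK* were raised too. For *COL25A1*, *COL5A1*, *ITGAV* and *ITGB1* the lowest MG library lay above the highest library of the next cell type. That type was horizontal cells for *ITGAV* and the erythrocyte cluster for the rest.

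**Figure D1:**
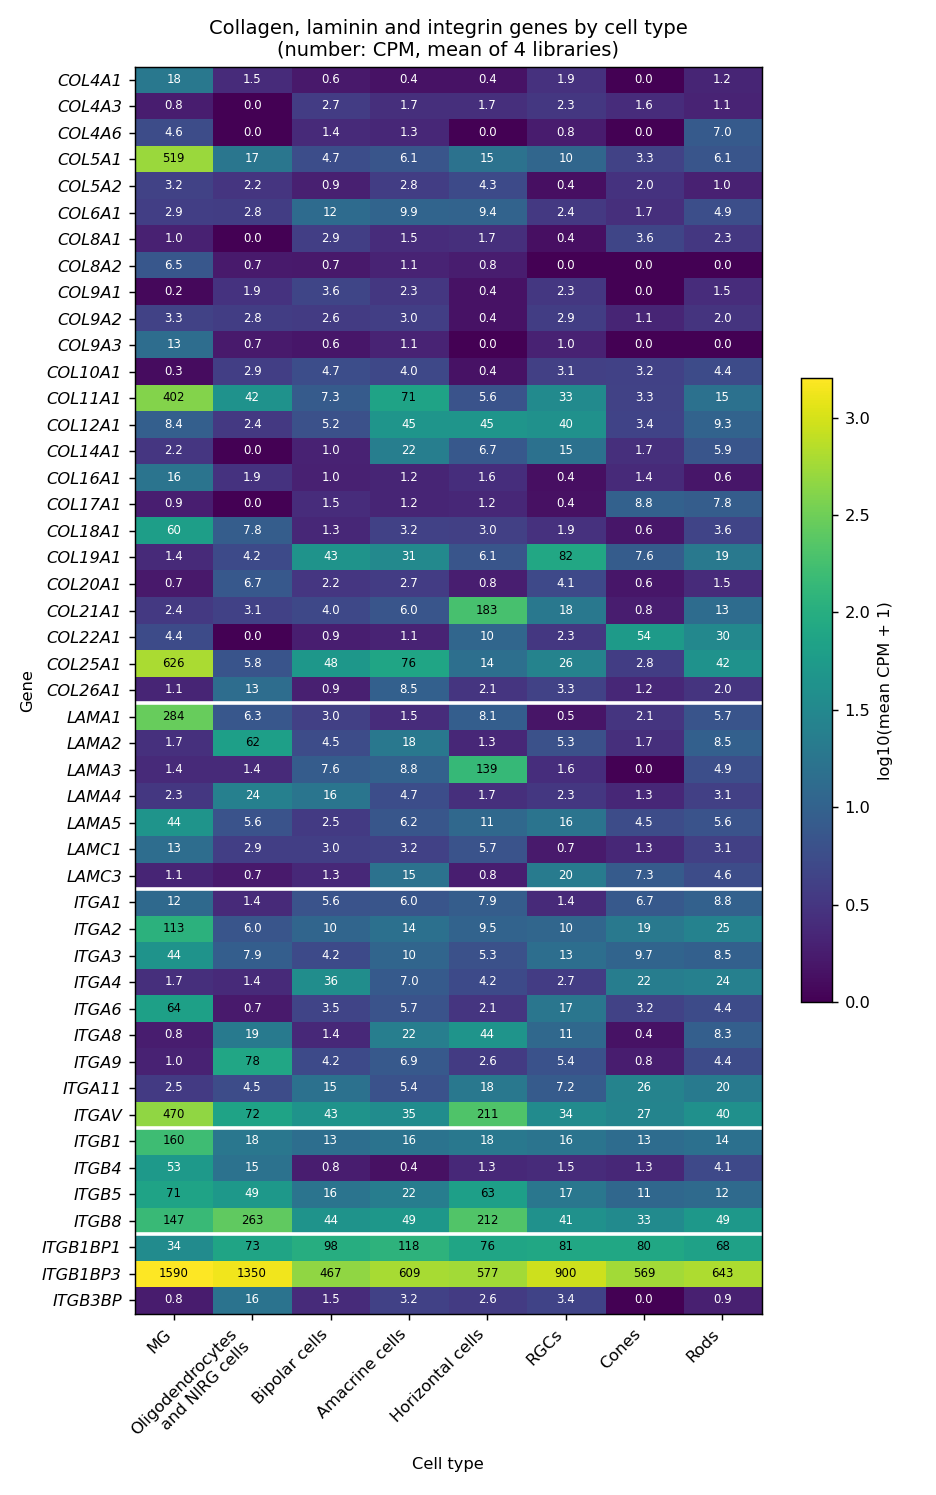
Heat map of the mean CPM over the 4 libraries (number in each cell, colour on a log10 scale) for collagen, laminin, integrin and integrin-binding genes, divided by white lines, in 8 named cell types. The erythrocyte cluster is not shown. Each row is to be read across: *COL5A1* averaged 519 CPM in MG, *COL21A1* 183 CPM in horizontal cells, *ITGA9* 78.3 CPM in oligodendrocytes and NIRG cells, and *COL19A1* 81.8 CPM in RGCs.

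RNA freed from broken cells can put UMIs of MG genes into other cells. As a gauge, *COL5A1* was at 0.779% to 1.53%, *LAMA1* at 0.265% to 2.32% and *COL11A1* at 1.15% to 2.73% of their MG levels in bipolar cells of the same library. Markers of MG ranged widely, with *GPR37L1* at 0.730% to 3.56%, *GLUL*, the glutamine synthetase of MG, at 1.51% to 5.09%, *FABP9* at 2.77% to 11.1% and *RLBP1* at 1.79% to 29.3%. Within that range were *COL25A1* (5.22% to 9.28%) and *ITGAV* (7.67% to 12.97%). *ITGB8* ran from 8.16% to 56.9%, and *ITGB5* was as high in bipolar cells as in MG in the NMDA library (110%). *COL5A1*, *LAMA1* and *COL11A1* were thus low in bipolar cells throughout. From these sums over all bipolar cells, free RNA could not be told apart from expression in bipolar cells for *COL25A1* and *ITGAV*. The bipolar clusters differed in *COL25A1*, as given below.

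The fibrillar collagens of MG were *COL5A1* and *COL11A1*. *COL5A1*, the α1 chain of type V, was at 490.5 CPM in clodronate+NMDA, 263 CPM in NMDA, 677 CPM in clodronate+saline and 644 CPM in saline. A UMI of it was found in 73.8% of MG in clodronate+NMDA (95% interval 68.8% to 78.3%), 65.6% in NMDA (60.7% to 70.4%), 89.7% in clodronate+saline (86.5% to 92.4%) and 90.9% in saline (88.7% to 92.8%), against 0.523% to 0.733% of bipolar cells, whose median depth was 1194 to 1412 UMIs. With MG thinned to 2000 UMIs, the shares for *COL5A1* were 63.9%, 42.4%, 73.0% and 72.0% in the same order, and those of bipolar cells were at most 0.903%. The NMDA library was thus the low one by level and by share. *COL11A1*, the α1 chain of type XI, a collagen of cartilage and vitreous, was at 552 CPM in clodronate+NMDA, 269 CPM in NMDA, 427 CPM in clodronate+saline and 361 CPM in saline, again lowest in NMDA, and highest in clodronate+NMDA.

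Of the other collagens with at least 100 UMIs in MG, *COL25A1*, a membrane-bound collagen made by neurons in mammals, was at 581 CPM in clodronate+NMDA, 523 CPM in NMDA, 629 CPM in clodronate+saline and 769 CPM in saline. *COL18A1*, the basement membrane collagen that is the source of endostatin, was at 84.8 CPM in clodronate+NMDA, 77.1 CPM in NMDA, 31.1 CPM in clodronate+saline and 48.9 CPM in saline, so that both damaged libraries were above both undamaged ones. The fibril-associated *COL16A1* was at 5.21 CPM in clodronate+NMDA, 2.28 CPM in NMDA, 18.9 CPM in clodronate+saline and 38.5 CPM in saline, the opposite order. *COL9A3*, a chain of the fibril-coating type IX, had the same split, with 2.98 CPM in clodronate+NMDA, 2.28 CPM in NMDA, 25.0 CPM in clodronate+saline and 22.2 CPM in saline.

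*COL4A1* and *COL4A2*, the type IV chains found in nearly all basement membranes, lie side by side on chromosome 1 (138807413 to 138920608 and 138919708 to 139061817 in RefSeq's annotation of GRCg7b). *COL4A1* had 70 UMIs in the MG of clodronate+NMDA, 30 in NMDA, 5 in clodronate+saline and 1 in saline, or 52.1, 17.1, 2.77 and 0.296 CPM. *COL4A2* had 37 UMIs in clodronate+NMDA, 20 in NMDA, 2 in clodronate+saline and 0 in saline, or 27.5, 11.4 and 1.11 CPM and, in saline, at most 3 UMIs at this depth. Both genes were thus scarce in undamaged MG, present in damaged MG and highest where microglia had been ablated before damage. Few cells carried them: *COL4A1* UMIs were in 13.7% of MG in clodronate+NMDA (10.2% to 17.8%), 6.98% in NMDA (4.65% to 9.99%), 0.683% in clodronate+saline (0.141% to 1.98%) and 0.123% in saline (0.0031% to 0.684%), against at most 0.187% of bipolar cells of any library. Thinned to 2000 UMIs, the *COL4A1* shares were 7.22%, 3.53%, 0.462% and 0.124%, and at most 0.293% of bipolar cells. UMIs of both *COL4A1* and *COL4A2* were seen together in 5 MG of clodronate+NMDA, 4 of NMDA, 1 of clodronate+saline and 0 of saline. As means of the 4 libraries, *COL4A1* was at 13.5 CPM in the erythrocyte cluster (0 to 39.9) and 18.1 CPM in MG. *COL4A2* was higher in that cluster, at 19.3 CPM (0 to 56.2, from 13 UMIs), than in MG, at 10.0 CPM. Some MG markers were raised in that cluster too. The other type IV chains had 2 to 40 UMIs each over the MG of the 4 libraries.

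Scarcer collagens counted in MG also differed between libraries. *COL6A3*, a chain of the beaded filaments of type VI, was at 0.744 CPM in clodronate+NMDA, 2.28 CPM in NMDA, 28.3 CPM in clodronate+saline and 2.67 CPM in saline, high in clodronate+saline alone. *COL8A2*, a short-chain collagen of the corneal endothelium, was at 3.72 CPM in clodronate+NMDA, 6.28 CPM in NMDA, 2.22 CPM in clodronate+saline and 13.6 CPM in saline, high in saline. *COL12A1*, which binds fibrils, was at 5.95 CPM in clodronate+NMDA, 18.8 CPM in NMDA, 2.77 CPM in clodronate+saline and 5.92 CPM in saline, high in NMDA. The fibril-associated *COL22A1* was at 8.19 CPM in clodronate+NMDA, 1.14 CPM in NMDA, 2.77 CPM in clodronate+saline and 5.63 CPM in saline, from 2 to 19 UMIs. Most UMIs of *COL12A1* and *COL22A1* lay outside MG, which held 5.07% and 12.6% of those in kept cells. Bipolar cells had *COL12A1* at 41.2% of its MG level in NMDA and 75.9% in saline. The part of free RNA in the MG levels of *COL12A1* and *COL22A1* was not tested.

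**Figure D2:**
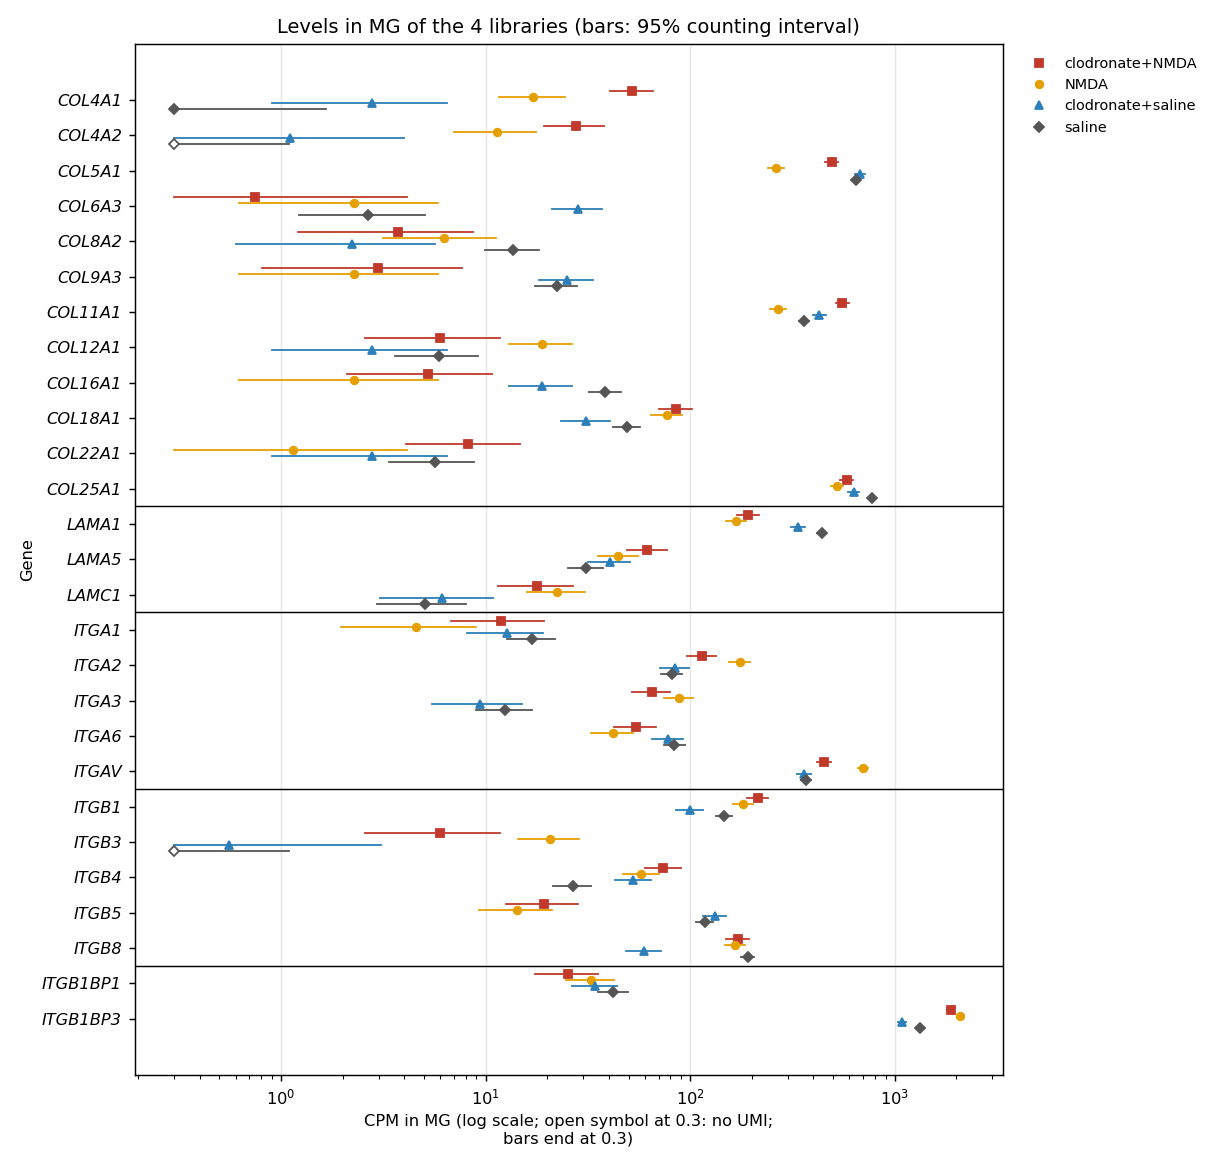
CPM in MG (log scale) of the 27 genes described in MG, by library (symbols), with exact 95% counting intervals, open symbols at 0.3 CPM where no UMI was found, and black lines between the gene families. *COL4A1*, *COL4A2*, *ITGA3* and *LAMC1* lie to the right in both NMDA-treated libraries, *COL9A3*, *COL16A1* and *ITGB5* to the left, and *COL6A3* stands apart in clodronate+saline.

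The laminin of MG was mostly *LAMA1*, the α1 chain of the inner limiting membrane. It was at 192 CPM in clodronate+NMDA, 167 CPM in NMDA, 336 CPM in clodronate+saline and 439 CPM in saline, with both damaged libraries below both undamaged ones. *LAMA5*, the α5 chain, was at 61.8 CPM in clodronate+NMDA, 44.6 CPM in NMDA, 40.5 CPM in clodronate+saline and 30.8 CPM in saline. *LAMC1*, the most widely used γ chain, was at 17.9 CPM in clodronate+NMDA, 22.3 CPM in NMDA, 6.10 CPM in clodronate+saline and 5.03 CPM in saline. β chains, which every laminin trimer needs, were nearly without UMIs in MG: *LAMB1* had 9 UMIs over the 4 libraries, *LAMB4* 5, *LAMB3* 1 and *LAMB2* 0, and *LAMB2* had no UMI in any barcode. No level of the protein can be read from this. A 3′ library counts only transcripts whose 3′ end is in the annotation, and the part of the annotation in these low counts was not tested.

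Among integrins of MG, *ITGAV*, the αV subunit of receptors for vitronectin, fibronectin and latent TGFβ, was at 452 CPM in clodronate+NMDA, 700.2 CPM in NMDA, 358 CPM in clodronate+saline and 369.9 CPM in saline, and so was highest in NMDA. *ITGA2*, the α2 subunit of a collagen and laminin receptor, was at 114 CPM in clodronate+NMDA, 174 CPM in NMDA, 84.3 CPM in clodronate+saline and 81.1 CPM in saline, in the same order of the damaged libraries. The laminin-binding subunits went opposite ways with damage. *ITGA3* was at 64.8 CPM in clodronate+NMDA, 88.0 CPM in NMDA, 9.43 CPM in clodronate+saline and 12.4 CPM in saline. *ITGA6* was at 54.3 CPM in clodronate+NMDA, 41.7 CPM in NMDA, 77.7 CPM in clodronate+saline and 83.5 CPM in saline. *ITGA1*, the α1 subunit of another collagen receptor, was at 11.9 CPM in clodronate+NMDA, 4.57 CPM in NMDA, 12.8 CPM in clodronate+saline and 16.9 CPM in saline.

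The common β subunit *ITGB1* was at 214 CPM in clodronate+NMDA, 180.5 CPM in NMDA, 99.3 CPM in clodronate+saline and 146 CPM in saline. The partners of αV split by condition. *ITGB5* was at 19.4 CPM in clodronate+NMDA, 14.3 CPM in NMDA, 131 CPM in clodronate+saline and 118 CPM in saline, far lower after damage. *ITGB3* had 8 UMIs in clodronate+NMDA, 36 in NMDA, 1 in clodronate+saline and 0 in saline, and *ITGB6*, known from epithelia, had 2, 12, 0 and 0. *ITGB8*, known from glia and neurons, was at 170.4 CPM in clodronate+NMDA, 166 CPM in NMDA, 59.4 CPM in clodronate+saline and 191 CPM in saline, so that clodronate+saline alone was low. *ITGB4*, which pairs only with α6, was at 73.7 CPM in clodronate+NMDA, 57.7 CPM in NMDA, 52.7 CPM in clodronate+saline and 26.7 CPM in saline, lowest in saline. Of the proteins that are not integrins, *ITGB1BP3* was at 1874 CPM in clodronate+NMDA, 2085 CPM in NMDA, 1079 CPM in clodronate+saline and 1322 CPM in saline, and *ITGB1BP1*, which binds the tail of the β1 subunit, at 25.3, 32.6, 34.4 and 42.1 CPM in that order.

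Ratios were taken for the genes with at least 20 UMIs over both libraries compared, and a gene was called when its log2 ratio reached 1 in either direction and its interval excluded 0. Of the 69 genes, 28 had enough UMIs in at least 1 of 4 comparisons, 18 in all 4, and 22 were called in at least 1. The other 41 had too few UMIs in MG in every comparison, 7 of them none. The share of all genes called in at least 1 comparison was not computed. A gene that passed the UMI minimum only through the library where it was high, such as *COL4A1*, *COL4A2*, *ITGB3* or *COL6A3*, had to differ, so the counts of calls describe these libraries and are no support for a change of the families as a whole. Saline MG enter a pair of the comparisons, as do NMDA, clodronate+saline and clodronate+NMDA MG. With 1 library per condition, damage and microglia loss cannot be told apart from differences between animals, injections or library preparations. Microglia loss cannot be told apart from exposure to liposomes either.

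NMDA over saline, which sets damaged beside undamaged MG without clodronate, had the most calls. Here 8 of 27 genes were higher in NMDA MG (15.3% over all genes) and 9 of 27 were lower (15.4% over all genes), and the median log2 ratio was 0.12, against 0.05 for all genes. Higher in NMDA MG were the basement membrane chains *COL4A1* (log2 ratio 5.85, interval 3.27 to 11.20, from 30 UMIs in NMDA and 1 in saline) and *COL4A2* (20 UMIs in NMDA and 0 in saline, at least 12.9-fold higher against a floor of 3 UMIs in saline, and with the counting error of both libraries a lower bound of 3.25 on the log2 scale). The laminin chain *LAMC1* (2.15, 1.29 to 3.06) and the fibril-associated *COL12A1* (1.67, 0.83 to 2.55) were higher as well. Integrin subunits higher in NMDA MG were *ITGB3* (36 UMIs in NMDA and 0 in saline, at least 23.1-fold higher against the same floor, and with the counting error of both libraries a lower bound of 4.16 on the log2 scale), *ITGA3* (2.82, 2.32 to 3.35), *ITGB4* (1.11, 0.69 to 1.54) and *ITGA2* (1.10, 0.86 to 1.34). *ITGAV* was just under the limit with 0.92 (0.81 to 1.04).

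Lower in NMDA than in saline MG were the fibril-associated collagens *COL16A1* (−4.07, −5.97 to −2.68), *COL9A3* (−3.28, −5.19 to −1.87) and *COL22A1* (−2.30, −5.45 to −0.25, from 2 UMIs in NMDA and 19 in saline). So were the fibrillar *COL5A1* (−1.29, −1.44 to −1.14) and the short-chain *COL8A2* (−1.12, −2.21 to −0.15). The laminin chain *LAMA1* was lower by the same rule (−1.39, −1.58 to −1.21), as were the integrin subunits *ITGB5* (−3.04, −3.69 to −2.46), *ITGA1* (−1.89, −3.16 to −0.81) and *ITGA6* (−1.002, −1.39 to −0.63). Without the limit of 2500 genes per cell and with cells clustered again, *COL22A1* was at −1.04 (−2.14 to 0.04), *COL8A2* at −0.99 and *ITGA6* at −0.82, none of them called. The families were thus split: among collagens 3 were higher and 5 lower of 12, among laminins 1 and 1 of 3, among α subunits 2 and 2 of 5, and among β subunits 2 and 1 of 5. Markers of other cells moved in the same MG: the 6 rod markers summed to 915 CPM in NMDA and 200.2 CPM in saline MG, the 8 cone markers to 588 and 226 CPM, the 5 erythrocyte markers to 146 and 4.15 CPM, and the 7 markers of oligodendrocytes and NIRG cells to 155 and 36.7 CPM, with none to 2 of a list at 0. Lower were the 8 amacrine markers, with 338 CPM in NMDA and 826 CPM in saline MG, and the 7 bipolar markers, with 283 and 576 CPM, with none at 0. The part of these markers in the ratios was not tested. The 8 mural cell and fibroblast markers summed to 2.86 CPM in NMDA and 1.78 CPM in saline MG, with 5 and 6 of the 8 at 0. *COL1A1* had 0 UMIs in NMDA and 1 in saline MG, and the 6 endothelial markers summed to 98.2 and 288 CPM, with 3 and 2 at 0. The endothelial marker *KDR* was raised in MG clusters 11 and 13, so that sum does not measure endothelial cells alone. The part of mural and endothelial cells in the ratios was not tested.

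**Figure D3:**
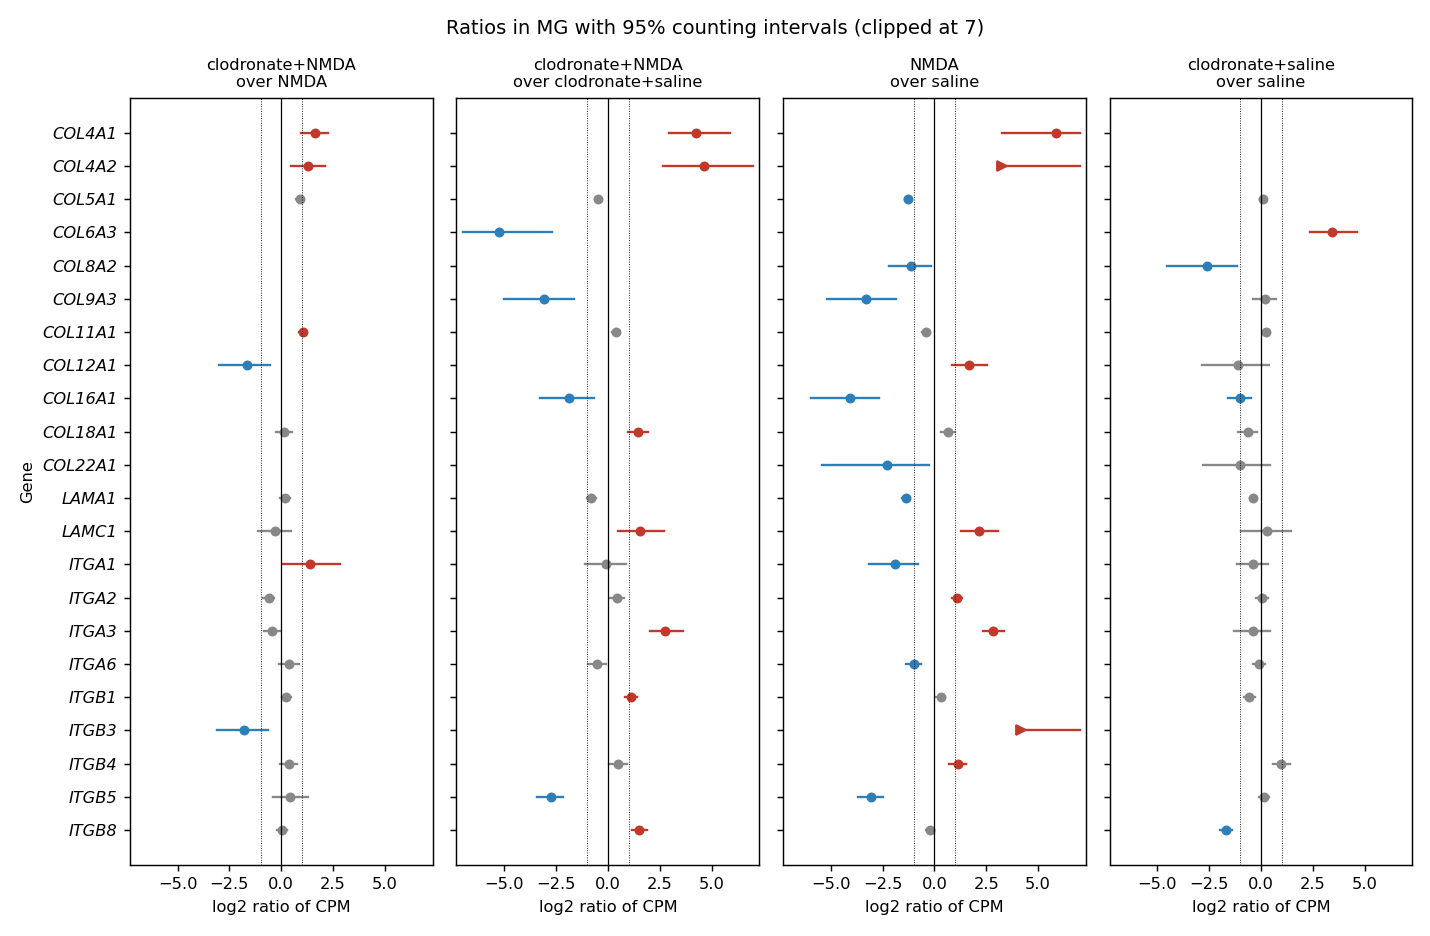
Log2 ratios of CPM in MG with 95% counting intervals (drawn up to 7) for the 22 called genes in 4 comparisons, in red where called higher, in blue where called lower and in grey where not called, with dotted lines at 1 and −1. Triangles mark *COL4A2* and *ITGB3* at the lower bound of the interval where saline had 0 UMIs. The 2 comparisons with damage (middle panels, clodronate+NMDA over clodronate+saline and NMDA over saline) hold most coloured points, and *COL6A3* is red in clodronate+saline over saline.

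Clodronate+NMDA over clodronate+saline, which sets damaged beside undamaged MG after clodronate, shares no library with NMDA over saline. Here 7 of 23 genes were higher in clodronate+NMDA MG (9.97% over all genes) and 4 of 23 were lower (9.86% over all genes), with a median of 0.37 against 0.03. Higher were *COL4A1* (4.23, 2.94 to 5.90) and *COL4A2* (4.63, 2.68 to 7.73), *COL18A1* (1.45, 0.98 to 1.94), *LAMC1* (1.55, 0.47 to 2.73), and the integrin subunits *ITGA3* (2.78, 2.02 to 3.62), *ITGB8* (1.52, 1.18 to 1.87) and *ITGB1* (1.11, 0.84 to 1.39). Lower were *COL6A3* (−5.25, −10.58 to −2.71, from 1 UMI in clodronate+NMDA and 51 in clodronate+saline), *COL9A3* (−3.07, −5.005 to −1.61), *ITGB5* (−2.76, −3.41 to −2.18) and *COL16A1* (−1.86, −3.27 to −0.66). *LAMA1* (−0.81, −1.02 to −0.59) and *COL5A1* (−0.46, −0.60 to −0.33) were below 0 and short of the limit. The 6 rod markers summed to 393 CPM in clodronate+NMDA and 124 CPM in clodronate+saline MG, and the 8 cone markers to 928 and 141 CPM, and their part in the ratios was not tested either.

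Genes called in both comparisons with damage went the same way: *COL4A1*, *COL4A2*, *LAMC1* and *ITGA3* were higher and *COL9A3*, *COL16A1* and *ITGB5* were lower in the NMDA-treated member of each. How often all genes called in both comparisons went the same way was not computed, so this does not set these families apart. *ITGB8*, *ITGB1* and *COL18A1* were called after clodronate and not in NMDA over saline, and for each of them clodronate+saline had the lowest level of the 4 libraries. *ITGB1* was at 0.95 and not called without the limit of 2500 genes per cell. *COL6A3* had too few UMIs to be tested in NMDA over saline. Another 10 genes were called in NMDA over saline and not after clodronate. Of these, *LAMA1*, *COL5A1*, *ITGA1*, *ITGA2*, *ITGA6* and *ITGB4* had enough UMIs after clodronate and were not called. *COL8A2*, *COL12A1*, *COL22A1* and *ITGB3* had too few UMIs to be tested after clodronate. The difference between the comparisons was not tested for any of them.

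Clodronate+NMDA over NMDA, which sets damaged MG after clodronate beside damaged MG without it, had fewer calls. Here 4 of 22 genes were higher in clodronate+NMDA MG (6.58% over all genes) and 2 of 22 were lower (5.02% over all genes), with a median of 0.17 against 0.07. With TMM or median of ratios scaling the split was 2 higher and 2 lower. Of all genes, 5.50% were then higher and 5.89% lower with TMM, and 5.41% and 5.92% with median of ratios. Higher were *COL4A1* (1.60, 0.97 to 2.27), *COL4A2* (1.27, 0.45 to 2.13), *ITGA1* (1.38, 0.07 to 2.81, from 16 and 8 UMIs) and *COL11A1* (1.04, 0.87 to 1.21). Lower were *ITGB3* (−1.79, −3.10 to −0.66) and *COL12A1* (−1.66, −2.99 to −0.52). Below the limit were *COL5A1* (0.90, 0.72 to 1.07), *ITGAV* (−0.63, −0.77 to −0.49) and *ITGA2* (−0.61, −0.90 to −0.33). Intervals of *ITGB8* (0.04, −0.22 to 0.30), *LAMA1* (0.20, −0.05 to 0.44) and *COL18A1* (0.14, −0.23 to 0.51) included 0. In the same MG the 6 rod markers summed to 393 CPM in clodronate+NMDA and 915 CPM in NMDA, the 8 cone markers to 928 and 588 CPM, and the 8 microglia markers to 18.6 and 5.14 CPM, with 6 and 4 of them at 0. The 5 erythrocyte markers had 0 CPM in clodronate+NMDA and 146 CPM in NMDA MG, with 5 and 2 of them at 0, and the 7 markers of oligodendrocytes and NIRG cells summed to 74.4 and 155 CPM, with 2 and 0 at 0. Their part in the ratios was not tested.

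More than 2500 genes were detected in a further 136 MG of clodronate+NMDA and 437 of NMDA, which the limit on cells left out. Without that limit the cells were clustered again, which gave 304 MG in clodronate+NMDA and 656 in NMDA. A cluster of 234 clodronate+NMDA and 553 NMDA cells with markers of MG, photoreceptors and erythrocytes then stayed outside the MG. With these other cells, 7 genes were called, 3 higher and 4 lower in clodronate+NMDA MG. Of these, *COL4A1* (1.11, 0.67 to 1.55) and *COL11A1* (1.02, 0.91 to 1.14) were among the 6 above. Of all genes, 7.18% were called higher and 5.69% lower with these cells. *COL4A2* was then at 0.82 (0.24 to 1.40), *ITGA1* at 0.63 (−0.41 to 1.62), *ITGB3* at −0.89 (−1.81 to −0.07) and *COL12A1* at −0.57 (−1.32 to 0.12). With the same cells *ITGB6* had 1 UMI in clodronate+NMDA and 40 in NMDA MG (−4.01, −9.35 to −1.45) and was called lower. The other added calls were *COL9A3* (2.20, 0.77 to 3.77), which was higher, and *COL9A2* (−3.22, −8.58 to −0.59), *COL4A6* (−2.15, −5.29 to −0.13) and *COL8A2* (−1.50, −3.21 to −0.14), which were lower. *COL11A1* fell short of the limit with TMM scaling (0.94).

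Clodronate+saline over saline sets undamaged MG after clodronate beside undamaged MG without it. Here 1 of 25 genes was higher in clodronate+saline MG (5.0% over all genes) and 3 of 25 were lower (2.93% over all genes), with a median of −0.29 against 0.09. The gene called higher was *COL6A3* (3.41, 2.37 to 4.62), with 51 UMIs in clodronate+saline and 9 in saline MG. Its UMIs lay in 43 clodronate+saline MG, 9.79% of them (7.18% to 12.97%), with at most 2 UMIs in a cell, against 1.11% of saline MG (0.508% to 2.09%) and at most 0.0489% of bipolar cells of any library. Thinned to 2000 UMIs, *COL6A3* was found in 5.77% of clodronate+saline and 0.744% of saline MG. The other chains of type VI, *COL6A1* and *COL6A2*, had 4 and 1 UMIs in clodronate+saline and 4 and 0 in saline MG.

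Called lower in clodronate+saline MG were *COL8A2* (−2.62, −4.55 to −1.16, from 4 UMIs in clodronate+saline and 46 in saline), *ITGB8* (−1.68, −1.99 to −1.39) and *COL16A1* (−1.03, −1.62 to −0.48). *ITGB8* was found in 21.4% of clodronate+saline MG (17.7% to 25.6%) and 47.8% of saline MG (44.3% to 51.3%), against 2.64% and 1.86% of bipolar cells, and in 10.6% and 30.3% of MG thinned to 2000 UMIs. The cells of cluster 19, which held MG and rod markers together, had the same order, with *ITGB8* at 62.7 CPM in clodronate+saline and 139 CPM in saline, and with 16 and 0 UMIs of *COL6A3*. *ITGB4* was at the edge of a call (0.98, 0.55 to 1.42), and *ITGB1* was below 0 (−0.56, −0.81 to −0.31). *COL5A1* (0.07, −0.03 to 0.17), *ITGAV* (−0.05, −0.18 to 0.09) and *ITGA6* (−0.10, −0.41 to 0.19) had intervals that included 0. The 8 microglia markers summed to 17.2 CPM in clodronate+saline and 3.26 CPM in saline MG, with 6 and 3 of them at 0, and the 8 mural cell and fibroblast markers to 1.66 and 1.78 CPM, with 5 and 6 at 0. The part of these markers in the ratios was not tested.

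Other genes of matrix and adhesion were counted in the same MG, to be read beside the 15.3% of all genes called higher and 15.4% called lower in NMDA over saline. Of 12 further basement membrane and matrix proteins with enough UMIs, 4 were higher and 2 lower in NMDA than in saline MG. Higher were, among others, *TNC*, the matrix protein tenascin C (5.16, 4.51 to 5.89), and *AGRN*, the basement membrane proteoglycan agrin (1.82, 1.61 to 2.03). Lower were the netrin *NTN4* (−4.14, −7.21 to −2.23) and the proteoglycan core *NCAN* (−2.22, −4.17 to −0.74). Of 16 enzymes of collagen synthesis and crosslinking, 6 were higher and 2 lower in NMDA MG. *ADAMTS3*, a procollagen N-proteinase in mammals, had 598 UMIs in NMDA and 6 in saline MG (7.59, 6.46 to 9.04). The folding enzymes *P4HB* (1.67, 1.46 to 1.87) and *PPIB* (1.54, 1.43 to 1.65) were higher, whereas the collagen galactosyltransferase *COLGALT2* was lower (−2.33, −3.05 to −1.67). Of 23 integrin adhesion and signaling proteins, 8 were higher and 4 lower in NMDA MG. The kindlin *FERMT1* (3.25, 2.37 to 4.23) and the adaptor *BCAR1* (2.98, 2.32 to 3.69) were higher, and the actin crosslinker *ACTN4* was lower (−2.37, −3.74 to −1.26). Of 13 other matrix receptors 5 were higher and 3 lower. The syndecan *SDC4* was at 471 CPM in NMDA and 6.51 CPM in saline MG (6.18, 5.57 to 6.86) and the hyaluronan receptor *CD44* had 147 and 0 UMIs. Of 12 matrix proteases and inhibitors 3 were higher and 2 lower. The inhibitors *TIMP3* (2.20, 1.88 to 2.53) and *SERPINE2* (2.05, 1.79 to 2.31) were higher.

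In clodronate+saline over saline MG, with 5.0% of all genes called higher and 2.93% lower, the same lists gave 3 higher and 1 lower of 12 matrix proteins. Higher were *FN1*, fibronectin (2.33, 2.17 to 2.50, from 624 CPM in clodronate+saline and 124 CPM in saline), and *EFEMP1*, a fibulin (2.54, 2.02 to 3.07). Of 15 collagen enzymes 1 was higher, the crosslinking enzyme *LOX* (2.25, 1.52 to 3.04), and 1 lower. Proteases and inhibitors gave 2 higher and 0 lower of 13, and adhesion proteins 4 and 1 of 23. Other receptors gave 3 and 0 of 12, among them the syndecans *SDC1* (2.71, 2.43 to 2.995) and *SDC4* (2.42, 1.703 to 3.19). *FN1* and *LOX* were thus higher in the same library as *COL6A3*, and all 3 were lower in clodronate+NMDA than in clodronate+saline MG, with log2 ratios of −3.73 (−4.12 to −3.37) for *FN1* and, for *LOX*, −5.38 (−10.71 to −2.85, from 1 and 56 UMIs). In clodronate+NMDA over NMDA MG, with 6.58% of all genes called higher and 5.02% lower, none of the 10 matrix proteins and none of the 10 proteases and inhibitors was called. Of 14 collagen enzymes 1 was higher (*COLGALT2*, 1.45, 0.67 to 2.27) and 2 lower (*ADAMTS3*, −1.83, −2.12 to −1.55, and the prolyl hydroxylase *P3H1*, −1.71, −2.51 to −0.98). Of 22 adhesion proteins 2 were higher and 1 lower (*FERMT1*, −1.81, −2.76 to −0.96). Of 13 receptors *SDC4* was lower (−2.16, −2.42 to −1.90). In clodronate+NMDA over clodronate+saline MG, with 9.97% of all genes called higher and 9.86% lower, the matrix proteins gave 1 higher and 3 lower of 11, the collagen enzymes 2 and 3 of 15, the proteases and inhibitors 2 and 1 of 12, the adhesion proteins 3 and 0 of 23 and the other receptors 3 and 1 of 13. The 10 tested genes that respond to tissue dissociation gave 1 higher and 2 lower in NMDA over saline, 1 and 0 in clodronate+saline over saline, 0 and 1 in clodronate+NMDA over NMDA, and 1 and 2 in clodronate+NMDA over clodronate+saline.

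Outside MG, some collagens, laminins and integrins were high in other types of neuron or glia. Horizontal cells were marked by *COL21A1*, a fibril-associated collagen, with 163 CPM in clodronate+NMDA, 190.0 CPM in NMDA, 166 CPM in clodronate+saline and 213 CPM in saline, and with 11.1 to 35.3 CPM in RGCs, the next type. *LAMA3*, the α3 chain known from epidermal laminin, was at 124 CPM in clodronate+NMDA, 162 CPM in NMDA, 128 CPM in clodronate+saline and 141 CPM in saline horizontal cells, and at 6.85 to 10.2 CPM in amacrine cells. For *COL21A1* and *LAMA3* the libraries differed little beside the gap between cell types. *ITGA8*, an α subunit that binds nephronectin, was at 46.2 CPM in clodronate+NMDA, 16.0 CPM in NMDA, 50.4 CPM in clodronate+saline and 63.9 CPM in saline horizontal cells, low in NMDA alone (NMDA over saline −1.9997, −3.23 to −0.93). *COL12A1* was at 30.2 CPM in clodronate+NMDA, 28.4 CPM in NMDA, 97.2 CPM in clodronate+saline and 25.6 CPM in saline horizontal cells (clodronate+saline over saline 1.93, 1.10 to 2.83), its 54 UMIs in clodronate+saline lying in 47 cells. Amacrine cells had 40.6 to 51.0 CPM of *COL12A1*, so horizontal cells were above them in clodronate+saline alone.

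Oligodendrocytes and NIRG cells, of which 20 to 86 were kept per library, carried *ITGA9*, an α subunit that binds tenascin and osteopontin, at 45.1 CPM in clodronate+NMDA, 61.1 CPM in NMDA, 67.4 CPM in clodronate+saline and 140 CPM in saline, and *LAMA2*, the α2 chain of muscle and Schwann cell laminin, at 78.9, 14.5, 59.0 and 97.0 CPM in that order. These rest on 4 to 36 UMIs of *ITGA9* and 5 to 25 of *LAMA2* per library. The 2 clusters of this class differed. Over all libraries *LAMA2* was at 70.4 CPM and *ITGA9* at 87.4 CPM in cluster 20 (181 cells), and no UMI of *LAMA2* was found in cluster 21 (78 cells, with *GLDN* and *NKX2-2* among its leading genes). Of the cells of this class, 1 in clodronate+NMDA, 43 in NMDA, 5 in clodronate+saline and 29 in saline were in cluster 21. Within cluster 20 *LAMA2* was at 80.7 CPM in clodronate+NMDA, 25.6 CPM in NMDA, 60.5 CPM in clodronate+saline and 129 CPM in saline. In cluster 21 *LAMA4*, a laminin chain of vessel walls, was at 99.1 CPM and *ITGB4* at 85.6 CPM, where cluster 20 had 4.85 CPM of *LAMA4* and no UMI of *ITGB4*. *ITGB8* was at 282 CPM in clodronate+NMDA, 160.0 CPM in NMDA, 382 CPM in clodronate+saline and 229 CPM in saline cells of this class.

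**Figure D4:**
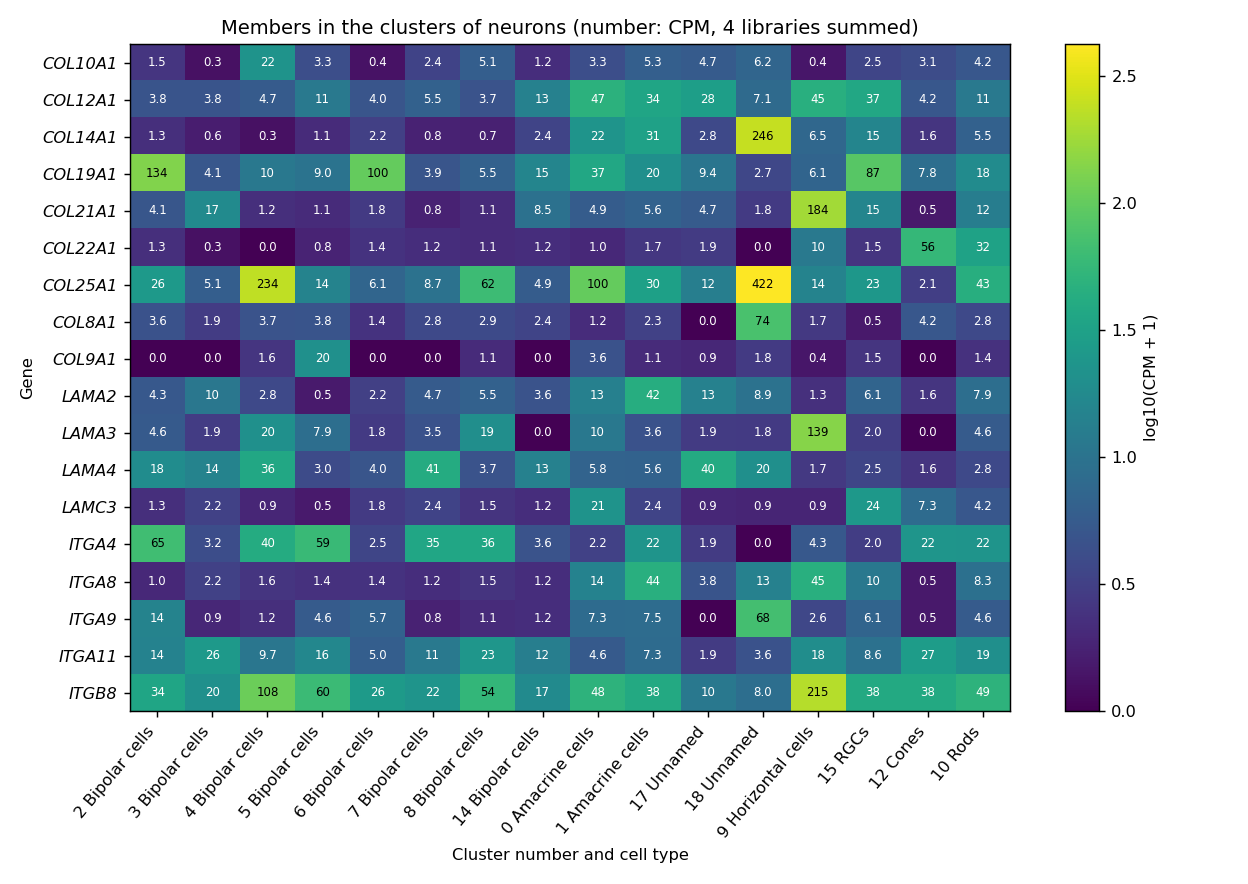
CPM, summed over the 4 libraries (number, colour on a log10 scale), of 18 genes in the clusters of neurons, whose numbers carry no order. *COL19A1* is high in bipolar clusters 2 and 6 (134 and 99.9 CPM) and *COL25A1* in bipolar cluster 4 and in cluster 18 (234 and 422 CPM). Of amacrine clusters 0 and 1, *LAMA2* is higher in cluster 1 (42.2 CPM) and *LAMC3* in cluster 0 (21.3 CPM).

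The clusters of bipolar cells differed more among themselves than their summed levels show. *COL19A1*, a fibril-associated collagen that interneurons make in mouse, was at 134 CPM in cluster 2 and 99.9 CPM in cluster 6 and at 3.94 to 14.6 CPM in the other 6 bipolar clusters. *COL25A1* was at 234 CPM in cluster 4, *COL10A1*, a collagen of cartilage growth plates, at 21.5 CPM in the same cluster, *COL9A1* at 19.6 CPM in cluster 5, and *LAMA4* at 40.6 CPM in cluster 7 and 36.2 CPM in cluster 4. *ITGA4*, an α subunit that binds fibronectin and VCAM1, was at 64.8 CPM in cluster 2 and 59.4 CPM in cluster 5, against 2.51 to 3.64 CPM in clusters 3, 6 and 14. The clustering did not use these genes, and all 4 libraries contributed to each of the 8 clusters.

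Cluster 18, which was left unnamed because only 2 amacrine markers were raised in it, had 378 cells and was led by *SLC18A3* and *CHAT*, the genes of acetylcholine storage and synthesis. *COL25A1* was at 462 CPM in clodronate+NMDA, 286 CPM in NMDA, 487 CPM in clodronate+saline and 370.4 CPM in saline cells of it. *COL14A1*, a fibril-associated collagen, was at 197 CPM in clodronate+NMDA, 83.7 CPM in NMDA, 369.1 CPM in clodronate+saline and 370.4 CPM in saline cells, and over all libraries at 246 CPM, against 22.1 and 30.8 CPM in amacrine clusters 0 and 1. *COL8A1* (73.7 CPM) and *ITGA9* (68.4 CPM) were also high in cluster 18, which carried no UMI of *ITGA4*. With 59 to 132 cells per library these levels rest on 14 to 199 UMIs each.

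Among amacrine cells, *LAMA2* was at 15.0 CPM in clodronate+NMDA, 6.60 CPM in NMDA, 33.0 CPM in clodronate+saline and 17.7 CPM in saline (NMDA over saline −1.42, −2.17 to −0.73, and clodronate+NMDA over NMDA 1.18, 0.45 to 1.96). *LAMC3*, the γ3 chain, had the same low library, with 16.5 CPM in clodronate+NMDA, 6.90 CPM in NMDA, 18.2 CPM in clodronate+saline and 18.4 CPM in saline (NMDA over saline −1.41, −2.14 to −0.73, and clodronate+NMDA over NMDA 1.26, 0.55 to 2.01). The make-up of the class differed, with 980 cells of cluster 0 and 417 of cluster 1 in clodronate+NMDA, 687 and 745 in NMDA, 1589 and 1211 in clodronate+saline, and 1251 and 797 in saline. NMDA was also the lowest library for *LAMC3* within cluster 0 and for *LAMA2* within cluster 1. *LAMC3* was at 19.7 CPM in clodronate+NMDA, 9.86 CPM in NMDA, 25.4 CPM in clodronate+saline and 23.9 CPM in saline cells of cluster 0. As means of the 4 libraries, *LAMC3* was higher in kept RGCs, at 20.4 CPM (0 to 34.9, from 48 UMIs), than in amacrine cells, at 15.0 CPM. *LAMA2* was at 28.0 CPM in clodronate+NMDA, 12.6 CPM in NMDA, 71.9 CPM in clodronate+saline and 26.2 CPM in saline cells of cluster 1. *COL25A1* was at 51.0 CPM in clodronate+NMDA, 48.3 CPM in NMDA, 88.8 CPM in clodronate+saline and 116 CPM in saline amacrine cells, lower in both damaged libraries (NMDA over saline −1.26, −1.52 to −1.005). Within cluster 0, *COL25A1* was at 49.0 CPM in clodronate+NMDA, 62.5 CPM in NMDA, 116 CPM in clodronate+saline and 150 CPM in saline. *COL14A1* was at 13.4 CPM in clodronate+NMDA, 16.8 CPM in NMDA, 32.6 CPM in clodronate+saline and 26.6 CPM in saline amacrine cells.

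Summed over whole classes, *COL19A1* was highest in RGCs, below bipolar cluster 2, at 95.3 CPM in clodronate+NMDA, 52.9 CPM in NMDA, 101 CPM in clodronate+saline and 78.4 CPM in saline, of which NMDA rests on 9 UMIs in 74 cells. The RGCs of NMDA that were kept had a median of 1510 UMIs, against 3707 to 5024 in the others. In bipolar cells, *COL19A1* was at 70.6 CPM in clodronate+NMDA, 28.6 CPM in NMDA, 34.2 CPM in clodronate+saline and 39.5 CPM in saline, highest in clodronate+NMDA (over NMDA 1.301, 1.03 to 1.57, and over clodronate+saline 1.05, 0.78 to 1.32). In bipolar cluster 2 the *COL19A1* levels were 210 CPM in clodronate+NMDA, 92.9 CPM in NMDA, 141 CPM in clodronate+saline and 111 CPM in saline. In cluster 6 they were 148, 64.5, 70.2 and 131 CPM in that order, with saline near clodronate+NMDA. Clusters 2 and 6 held 514 and 420 of 2676 bipolar cells in clodronate+NMDA and 750 and 669 of 4807 in NMDA. They held 585 and 467 of 4092 in clodronate+saline and 774 and 722 of 5060 in saline. The part of this make-up in the summed levels was not tested.

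*ITGB8* moved in neurons as well. In bipolar cells it was at 41.3 CPM in clodronate+NMDA, 94.3 CPM in NMDA, 23.9 CPM in clodronate+saline and 15.6 CPM in saline, highest in NMDA (NMDA over saline 2.60, 2.29 to 2.92, and clodronate+NMDA over NMDA −1.19, −1.45 to −0.94). Clodronate+NMDA was below NMDA and above both undamaged libraries. NMDA had the highest *ITGB8* level in each of the 8 bipolar clusters, from 27.1 to 227 CPM, with saline at 8.86 to 22.7 CPM. In cones *ITGB8* was at 33.3 CPM in clodronate+NMDA, 71.5 CPM in NMDA, 15.7 CPM in clodronate+saline and 13.1 CPM in saline, and in rods at 57.3, 100.3, 19.8 and 20.3 CPM in that order. Horizontal cells had another order, with 206 CPM in clodronate+NMDA, 243 CPM in NMDA, 106 CPM in clodronate+saline and 292 CPM in saline (clodronate+saline over saline −1.46, −1.91 to −1.03), so that clodronate+saline was the low library for *ITGB8* in horizontal cells as in MG. Hemoglobin transcripts were at 1877 CPM in bipolar cells of NMDA and 9.47 CPM in those of saline, and their relation to *ITGB8* was not tested. *COL5A1*, high in MG, was found in 0.583% of bipolar cells of NMDA and 0.632% of those of saline. Its MG level was lower in NMDA, and bipolar cells had 1.53% of that level in NMDA and 0.822% in saline. Among MG markers, *FABP9* was at 311 CPM in NMDA and 2.57 CPM in saline bipolar cells, and *MDK* at 71.5 and 3.85 CPM. *VIM* was at 647 and 270 CPM in that order. *GLUL*, at 30.8 and 407 CPM, was lower in NMDA, as were *RLBP1* and *GPR37L1*. The part of free MG RNA in the *ITGB8* levels of bipolar cells was not tested.

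**Figure D5:**
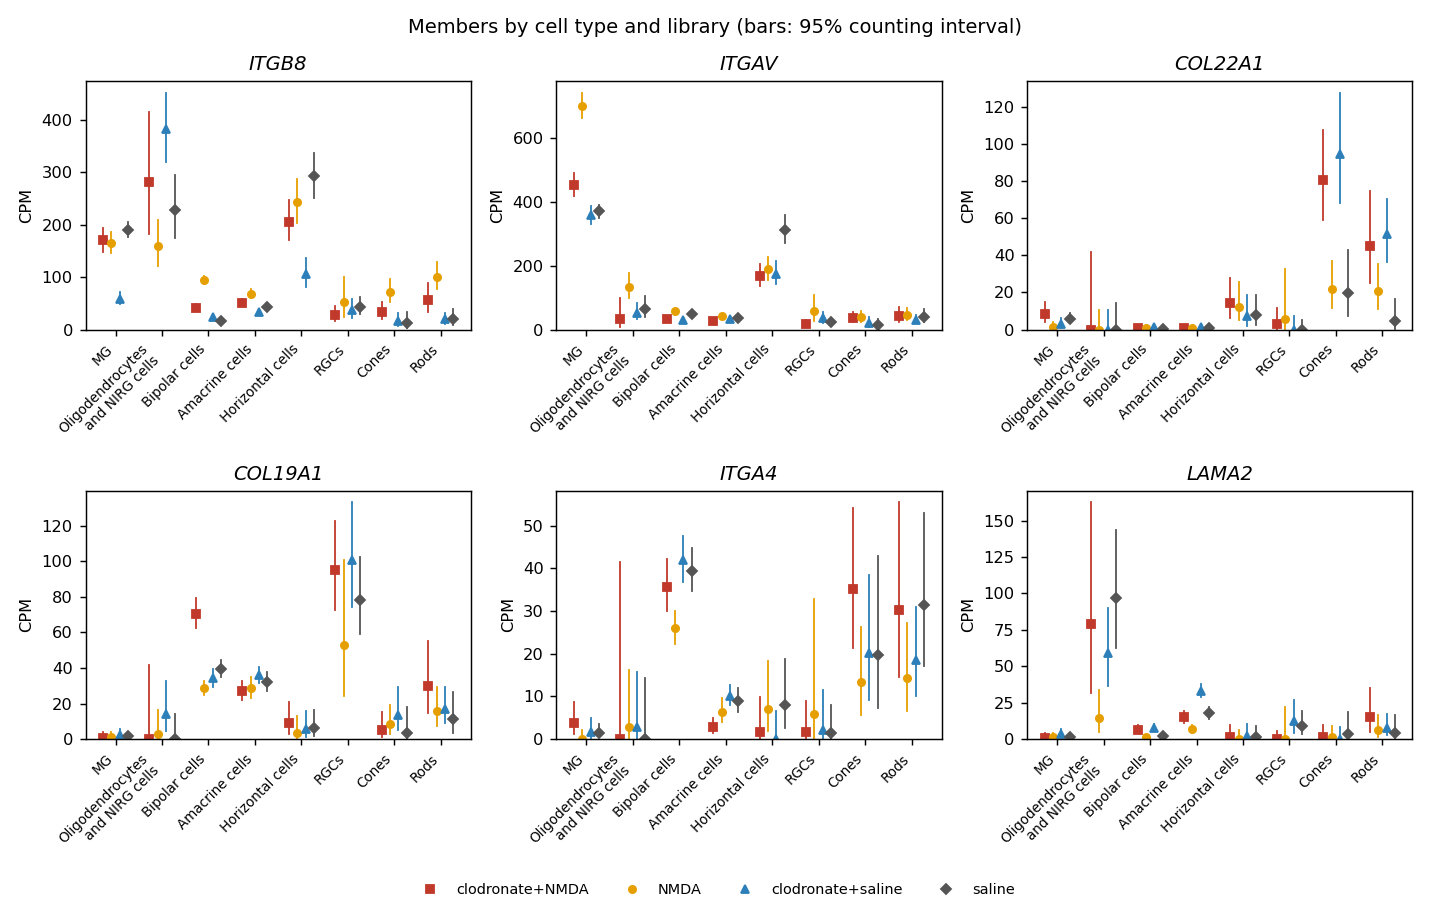
CPM with 95% counting intervals of *ITGB8*, *ITGAV*, *COL22A1*, *COL19A1*, *ITGA4* and *LAMA2* in 8 cell types, by library (symbols). *ITGB8* is highest in NMDA in bipolar cells, cones and rods and low in clodronate+saline in MG and horizontal cells. *COL22A1* is high in photoreceptors of both clodronate libraries, and the *COL19A1* level of bipolar cells is highest in clodronate+NMDA.

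Photoreceptors carried *COL22A1*, a fibril-associated collagen of tissue junctions. In cones it was at 80.7 CPM in clodronate+NMDA, 21.6 CPM in NMDA, 94.2 CPM in clodronate+saline and 19.7 CPM in saline, from 46, 13, 42 and 6 UMIs. In rods *COL22A1* was at 45.2 CPM in clodronate+NMDA, 20.7 CPM in NMDA, 51.4 CPM in clodronate+saline and 4.5002 CPM in saline, from 15, 13, 39 and 2 UMIs. Both libraries with clodronate were above both without it, in both photoreceptor clusters. The log2 ratios of *COL22A1* were 2.26 (1.02 to 3.78) in cones and 3.51 (1.56 to 6.61) in rods for clodronate+saline over saline, and 1.90 (0.99 to 2.91) in cones for clodronate+NMDA over NMDA. In rods, clodronate+NMDA over NMDA gave 1.13 (−0.04 to 2.32) for *COL22A1*, an interval that included 0. The cluster named for rods also held cone markers. *ITGA11*, the α11 subunit of a collagen receptor, was at 42.1 CPM in clodronate+NMDA, 19.95 CPM in NMDA, 24.7 CPM in clodronate+saline and 16.4 CPM in saline cones, from 5 to 24 UMIs.

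*ITGAV* was second highest in horizontal cells, at 169 CPM in clodronate+NMDA, 188 CPM in NMDA, 175 CPM in clodronate+saline and 312 CPM in saline, and *ITGB5* was level there, at 71.0 CPM in clodronate+NMDA, 56.8 CPM in NMDA, 57.6 CPM in clodronate+saline and 67.1 CPM in saline, unlike in MG. The 28 microglia barcodes of NMDA held 71 UMIs of *ITGB1BP3*, 11 of *ITGB5*, 8 of *ITGB8*, 7 of *ITGAV* and 5 of *ITGB1* among 58458 UMIs, and the 23 of saline held 53 of *ITGB1BP3*, 5 of *ITGB5* and 2 of *ITGB1* among 24242. *ITGB2*, the β subunit of leukocytes, had 2 and 1 UMIs in them and 11 UMIs in all barcodes. Other genes with fewer than 20 UMIs in all barcodes were *LAMB2* (0), *ITGB7* (1), *LAMB3* (8), *ITGA5* (10), *ITGA2B* (14) and *ITGB1BP2* (17). Of the 69 genes, 53 had at least 100 UMIs in kept cells, and 14 at least 1000.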

How the data were processed

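Counts of UMIs per gene and barcode were used as deposited by the authors, who made them with Cell Ranger 7.0.1 on GRCg7b according to the submitters' processing notes, whereas the methods of the paper name an earlier build. They were neither normalized nor corrected. Of the 69 genes, 67 were matched by symbol to RefSeq's gene table for GRCg7b. *ITGB1BP2* and *ITGB7* were not.

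The study's limits on cells were applied: 200 to 2500 detected genes, and mitochondrial UMIs of at most 5%. Counts were scaled to 10000 UMIs per cell, put on a log scale and clustered together (2000 variable genes without the genes described here, 10 principal components, 20 neighbours, resolution 0.8; scanpy 1.11.5, leidenalg 0.10.2, igraph 0.11.9). A cluster took the name of the type with the largest share of its markers raised, given at least 3, and stayed unnamed where most markers of another type were raised too (not between rods and cones), so names rest on rebuilt clusters. Clusters 17, 18 and 19 stayed unnamed. Scrublet called 0, 1, 0 and 6 cells in saline, clodronate+saline, NMDA and clodronate+NMDA as doublets, so its calls were not used.

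UMIs were summed per cell type and library (343 to 812 MG with 1343562 to 3376830 UMIs). A count of 0 can stand for up to 3. Ratios carry exact conditional binomial 95% intervals, and shares of cells exact Clopper-Pearson 95% intervals. PCR and droplet effects are not covered. The recovery of known ratios was tested on simulated data. Called genes, genes with at least 100 UMIs in MG and genes with at least 2 times the CPM of every other named type were named. Outside MG, genes short of that rule were described too, such as *COL12A1* and *ITGA8* in horizontal cells, *COL22A1* in cones, *COL19A1* in RGCs, *LAMC3* and *COL25A1* in amacrine cells and *ITGB8* in bipolar cells. Shares of all genes called in those cell types are not given, so ratios there do not set these genes apart. Some cluster-level genes and the values of cells above 2500 genes were chosen after their values had been seen. Alternatives concerned cell limits, clustering, a marker gate for MG, doublets, scaling (TMM in edgeR 4.0.16 and median of ratios), UMI minimums and thinning. Some items are not reported here. Members, marker lists and gene lists were chosen with earlier results of these data known. Scripts ran in R 4.3.3 and in Python 3.11.15 with pandas 2.3.3, scipy 1.17.1 and numpy 2.4.6.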

Additional observations from a re-analysis of the deposited data

Results flagged for a closer look

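In 4 genes the ratios of MG under the same treatment had opposite signs in the presence and absence of the other treatment, with both counting intervals without 0. Genes whose ratios differed in sign with an interval that held 0 were not counted. The same count was not made over all genes, so it does not set these families apart from others. With NMDA, *COL11A1* was lower in NMDA than in saline MG (log2 ratio −0.42) and higher in clodronate+NMDA than in clodronate+saline MG (0.37), and *ITGB8* was lower in NMDA than in saline MG (−0.20) and higher in clodronate+NMDA than in clodronate+saline MG (1.52). With clodronate, *COL25A1* was lower in clodronate+saline than in saline MG (−0.29) and higher in clodronate+NMDA than in NMDA MG (0.15), and *ITGB1* was lower in clodronate+saline than in saline MG (−0.56) and higher in clodronate+NMDA than in NMDA MG (0.25). The differences between the ratios were not tested, since each rests on 1 library per condition. Over the alternatives the *COL25A1* ratio of clodronate+NMDA over NMDA ran from −0.02 to 0.27, and the *ITGB1* ratio from 0.08 to 0.36. Without the upper limit of genes per cell, these ratios were 0.03 (−0.08 to 0.14) for *COL25A1* and 0.09 (−0.09 to 0.26) for *ITGB1*. Both intervals then held 0, so neither gene would have been counted. The intervals of *COL11A1* and *ITGB8* with NMDA stayed without 0 in that setting.

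For *ITGA7*, *ITGB6*, *ITGB3* and *LAMC3* more than 50% of the UMIs lay in barcodes that the limits on cells left out, mostly cells with more than 2500 genes. These shares were 74.3% for *ITGA7*, 65.4% for *ITGB6*, 56.4% for *ITGB3* and 54.5% for *LAMC3*. The left-out *ITGB6* and *ITGB3* UMIs of NMDA lay mainly in MG, with 31 and 44 UMIs in 437 MG above the limit, against 0 and 9 UMIs in 136 such MG of clodronate+NMDA. Those of *LAMC3* lay mainly in RGCs, with 183 UMIs in 824 RGCs above the limit in clodronate+NMDA, 71 in 427 in NMDA, 94 in 320 in clodronate+saline and 53 in 218 in saline.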

How the results depend on the processing

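Finite log2 ratios of called and abundant genes numbered 93, and none of those called changed sign under any alternative that gave it a value. The UMI minimums left each ratio unchanged, and scaling moved all ratios of a comparison alike, so these settings say little about sign. The alternatives gave 24 ratios at resolution 0.4, 64 with at least 100 UMIs and 79 thinned. They gave 89 with MG chosen by marker genes, and 92 or 93 otherwise. Some ratios that were not called changed sign, such as *COL5A1* (−0.05 to 0.12) and *ITGA2* (−0.29 to 0.10) in clodronate+saline over saline. With at least 100 UMIs over both libraries, 2 genes were called in clodronate+saline over saline, 8 in NMDA over saline, 2 in clodronate+NMDA over NMDA and 5 in clodronate+NMDA over clodronate+saline, because fewer genes were tested. With at least 1 UMI, 10 were called in clodronate+NMDA over NMDA (5.09% of all genes higher and 3.50% lower). With cells thinned to 2000 UMIs, 11 were called in NMDA over saline and 3 in clodronate+NMDA over NMDA. Thinned, 15.4% of all genes were higher and 14.7% lower in NMDA over saline, and 6.28% and 5.49% in clodronate+NMDA over NMDA. With MG chosen by marker genes instead of clusters, 6 genes were called in clodronate+saline over saline, 13 in NMDA over saline, 4 in clodronate+NMDA over NMDA and 11 in clodronate+NMDA over clodronate+saline. Without the upper limit of genes per cell, which also changed the clusters and the cells taken as MG, 14 of the 17 calls of NMDA over saline were kept (11 higher and 6 lower with those added), 10 of 11 in clodronate+NMDA over clodronate+saline, 4 of 4 in clodronate+saline over saline and 2 of 6 in clodronate+NMDA over NMDA. Calls over all genes were then 13.6% higher and 17.8% lower, 7.90% and 12.7%, 5.08% and 2.92%, and 7.18% and 5.69% in that order. TMM scaling moved the median log2 ratio of all genes in clodronate+saline over saline to −0.02, and median of ratios scaling to −0.03, from 0.09. At resolution 0.4 damaged MG merged with erythrocytes, so that only clodronate+saline over saline could be computed. No paired analysis was possible because each condition had 1 library, which also leaves no replicate to omit. Depth limits the 41 genes with too few UMIs in MG.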

Other observations

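The cluster named for erythrocytes had 53 cells in clodronate+NMDA, 375 in NMDA, 12 in clodronate+saline and 86 in saline. It was led by hemoglobin genes and also had the MG markers *VIM*, *FABP9* and *MDK*, the microglia marker *C1QB* and *TTR* raised. Hemoglobin was at 2039 CPM in it in clodronate+NMDA, 132056 in NMDA, 149729 in clodronate+saline and 40248 in saline. In NMDA it carried the interstitial collagens, with 95 UMIs of *COL1A1* (223 CPM) in 12 cells, 55 of *COL1A2* (129 CPM) in 11 cells and 26 of *COL3A1* (61.0 CPM) in 9 cells, against 0, 1 and 0 UMIs in clodronate+NMDA and none in clodronate+saline and saline. Over all cells, 138 of the 172 *COL1A1* UMIs were in the NMDA library. The cluster was not split further.

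RGCs above the limit of 2500 genes were more numerous than those kept. In them *COL19A1* was at 71.0 CPM in clodronate+NMDA, 49.7 CPM in NMDA, 83.6 CPM in clodronate+saline and 64.2 CPM in saline, with 105 to 576 UMIs per library, and NMDA was again the lowest. *LAMC3* was at 22.5 CPM in clodronate+NMDA, 15.8 CPM in NMDA, 34.2 CPM in clodronate+saline and 32.4 CPM in saline RGCs of that size.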
